A study of Oryctolagus cuniculus with 34 samples.

Results

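The transcriptome of the uninjured supraspinatus, which belongs to the rotator cuff of the shoulder, was described in 10 bulk RNA-seq libraries of rabbits (Oryctolagus cuniculus). They are the libraries titled as uninjured muscle of the long-term arm, 10 of the 34 in the series. The other 24 come from operated muscles and were not analysed here. Total RNA was extracted and the libraries were made by a commercial laboratory, BGI, per the labels' protocols. No treatment was given to these muscles as far as the labels say, and the label of replicate 10 carries no treatment entry, so that its group rests on its title. The titles do not say whether the rabbits had been operated on at the other shoulder. Strain, sex and age are not stated in the labels used here. Nor do the labels say that the 10 muscles came from separate animals. The p-values below therefore measure the spread between these libraries, which may in part be technical. A difference in bulk RNA can come from more cells of a type or from more RNA per cell, and these cannot be told apart.

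Skeletal muscle is built of multinucleate fibres whose sarcomeres of actin, myosin and titin produce force. Slow fibres contract slowly, rely on mitochondria and resist fatigue. Fast fibres contract quickly and draw more on glycogen and glycolysis. The 2 kinds use different genes for the same part of the machine: separate myosin heavy and light chains, troponins, calcium pumps and calsequestrins. Between the fibres lie capillaries with pericytes, nerve endings with Schwann cells, satellite cells that renew fibres, fibro-adipogenic progenitors that make matrix, macrophages and a few fat cells.

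The libraries held 12593821 to 15005207 counts, with a median of 13625682, so that 1 count was about 0.0734 CPM (counts per 1000000 counts). Between 13702 and 14166 of 18202 genes had a count in a library, and 2422 had none in any. The 10 libraries were of like depth, but they did not stand equally close together. Over the genes tested, replicate 4 held the highest or the lowest value of 32.2% of genes, replicate 1 of 29.5% and replicate 7 of 27.2%, while replicate 9 did so for 12.1%.

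Genes of the contractile apparatus and of its fuel supply led the transcriptome. The 10 most abundant genes took 24.2% of counts on average, the 20 most abundant 31.7%, and the 100 most abundant 49.9%. Only 103 genes reached a mean of 1000 CPM, while 10932 reached 1 CPM. The order below is one of reads, which grow with transcript length. Lengths were not used here, so the order is not one of transcript numbers.

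ACTA1, the skeletal alpha-actin of the thin filament, was the most abundant gene, with 59831 ± 4740 CPM (SD, n = 10). It ranged from 55835 CPM in replicate 1 over a median of 59078 to 72067 in replicate 4. TTN, the giant spring titin, followed with 40915 ± 5118 CPM and was lowest in replicate 4, at 29442. TPM2, a tropomyosin, was even across libraries, from 19394 to 23750 CPM. So was ANKRD23, a titin-associated ankyrin repeat protein, from 5139 to 6228 CPM.

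Other abundant genes differed several-fold between the same libraries. MYH1, a fast myosin heavy chain, ranged from 7135 CPM in replicate 1 over a median of 23438 to 52473 in replicate 7. ATP2A1, the fast calcium pump of the sarcoplasmic reticulum, went from 8844 CPM in replicate 1 to 39168 in replicate 7. MYL1, a fast light chain, ran from 2737 to 11448 CPM between the same 2 libraries. ACTN2, an alpha-actinin of the Z-disc, and MYBPC1, the slow myosin binding protein C, ran the other way. ACTN2 had 10967 CPM in replicate 1 and 3748 in replicate 7, and MYBPC1 had 12980 and 4595.

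The other genes among the 20 most abundant were CKM, the muscle creatine kinase (mean 13262 CPM), the glycolytic ALDOA (13255), NEB, the thin-filament ruler nebulin (12668), and PYGM, the muscle glycogen phosphorylase (10701). They were joined by TNNT1 (9193), the calcium release channel RYR1 (9058), NRAP (8938), the LIM protein FHL1 (6997), TPM1 (6685) and the small heat shock protein HSPB6 (6514). LOC100008687, at 16313 CPM, has no symbol in the RefSeq table used for names. The check list of 19 skeletal muscle fibre genes with an entry summed to between 205357 and 223732 CPM in every library, so that all 10 carried the markers of the labelled tissue.

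Slow fibre genes set the libraries apart more than the other lists did: of 27 list scores, theirs had the largest spread (SD 1.00 on the log2 scale, n = 10). The fast fibre score had an SD of 0.70, a little under the 0.72 of the immediate early genes. TNNI1, the slow troponin I, was taken as the measure of slow content because MYH7, the slow myosin heavy chain itself, has no entry in the tables used here. TNNI1 had 1615 CPM in replicate 7, 1925 in replicate 10, 1962 in replicate 5, 1983 in replicate 2 and 2383 in replicate 9. It had 4902 CPM in replicate 6, 5080 in replicate 3, 5330 in replicate 4, 6308 in replicate 8 and 7574 in replicate 1. The values thus fell into 2 sets of 5 libraries with an empty stretch between them, which took 47.4% of the log2 range of 1.93.

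The other slow genes tested rose with TNNI1 across the libraries, except TNNT1, which ran the opposite way. MYL2, the slow regulatory light chain, ranged from 566 CPM in replicate 7 over a median of 3439 to 10207 in replicate 1. MYL3, the slow essential light chain, ranged from 453 to 4930 CPM. TNNC1, the slow troponin C, ranged from 617 to 7068 CPM, and TPM3, the slow tropomyosin, from 169 to 1939. Each of these 4 was lowest in replicate 7 and highest in replicate 1. CASQ2, the slow calsequestrin, spanned 32.0 to 1042 CPM, and PLN, phospholamban, the brake of the slow calcium pump, 13.1 to 360. CSRP3, a muscle LIM protein, went from 16.8 CPM in replicate 7 to 1086 in replicate 8.

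**Figure D1:**
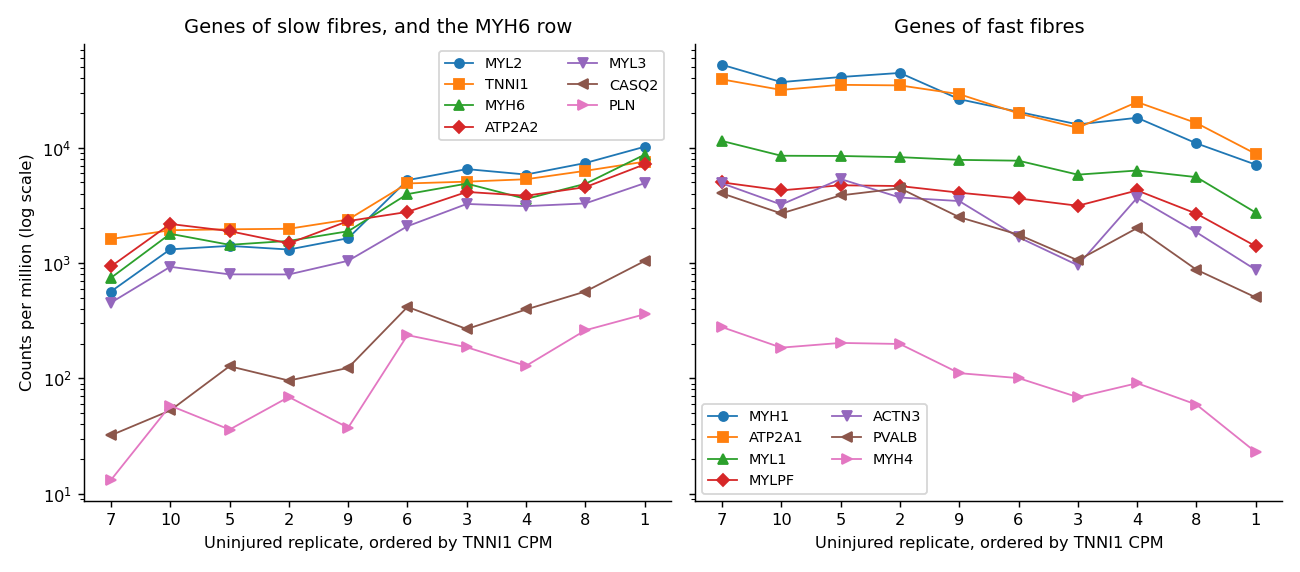
CPM (log scale) of 6 slow fibre genes and the MYH6 entry, left, and 7 of fast fibres, right, in each of the 10 uninjured libraries, ordered from low to high TNNI1. Each point is 1 library and lines only join the points of a gene. TNNI1 climbs from 1615 to 7574 CPM while MYH1 goes from 52473 CPM in replicate 7 to 7135 in replicate 1.

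Among the reads of 7 myosin heavy chain genes with an entry, MYH1 took 81.2% ± 17.0 (SD, n = 10). Its share was 43.0% in replicate 1, 86.0% at the median and 96.5% in replicate 7. The MYH6 entry took 15.5% on average, from 1.37% in replicate 7 over 11.1% at the median to 52.6% in replicate 1. MYH6 is the cardiac alpha chain and lies beside MYH7, a closely similar gene. The MYH6 entry may hold reads of MYH7, which was not tested. The heart genes NPPB and NPPA were at or near 0 (0 counts for NPPB, at most 0.0689 CPM for NPPA), while TNNT2, the cardiac troponin T that is also made in developing skeletal muscle, ranged from 21.0 CPM in replicate 7 to 249 in replicate 1. On average MYH13, known from the muscles of eye and larynx, took 1.37%, MYH7B 0.995%, the embryonic MYH3 0.567% and MYH4, the chain of the fastest fibres, 0.385%. MYH2, the chain of fast oxidative fibres, has no entry in the tables used here.

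Pairs of genes that fill the same role in slow and fast fibres gave the same order at both ends. The gene taken as the slow member had its lowest share of the pair's reads in replicate 7 and its highest in replicate 1 in all 8 pairs examined. Of these genes, ACTN2 and MYBPC1 were also listed as general muscle fibre genes, and the MYH6 entry may hold reads of MYH7. For the calcium pumps, ATP2A2 against ATP2A1, the slow share ran from 2.33% over a median of 9.81% to 44.8%. For the regulatory light chains, MYL2 against MYLPF, it ran from 10.2% over 43.3% to 88.0%. For the essential light chains, MYL3 against MYL1, it ran from 3.81% to 64.3%. For calsequestrin, CASQ2 against CASQ1, it ran from 0.835% to 28.2%, and for alpha-actinin, ACTN2 against ACTN3, from 43.3% to 92.6%. Replicate 7 was thus the fastest in make-up and replicate 1 the slowest by each pair.

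A slope on TNNI1 was then fitted for every gene over the 10 libraries with edgeR's quasi-likelihood test. The slope is the log2 change of a gene per log2 unit of TNNI1. Of 10363 genes, 1218 (11.8%) rose with TNNI1 and 1263 (12.2%) fell at a Benjamini-Hochberg adjusted p under 0.05. The median slope of all genes was 0.01. When a term for the 2 sets of libraries was added, 0 genes rose and 0 fell (1247 at an unadjusted p under 0.05, smallest adjusted p = 0.082), so no slope passed within the sets.

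In the slow fibre list, 12 of 13 genes rose with a median slope of 1.38. CASQ2 had a slope of 1.83 (SE 0.20, adjusted p = 1.0e-04) and MYL2 one of 1.70 (SE 0.11, adjusted p = 1.2e-06). The exception was TNNT1, the gene named for slow troponin T, which fell, with a slope of -0.72 (SE 0.13, adjusted p = 0.0013). Its level was lowest in replicate 1, at 3871 CPM, and highest in replicate 7, at 13368, the order of the fast genes. TNNT3, the fast troponin T, has no entry in the tables used here.

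In the fast fibre list, 0 of 13 genes rose and 12 fell, with a median slope of -0.69. MYH1 had a slope of -1.28 (SE 0.14), and PVALB, the calcium buffer parvalbumin, one of -1.31 (SE 0.21). PVALB ranged from 503 CPM in replicate 1 to 4451 in replicate 2. MYH4 had a slope of -1.34 (SE 0.19) and ran from 22.9 CPM in replicate 1 over a median of 106 to 278 in replicate 7. MYOZ3, a fast Z-disc protein, did not pass, with -0.41. The count of fast genes that fell was 8 when the 20 most abundant genes were left out of the counts, which removes 4 of the 13 from the test.

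The steepest rises with TNNI1 included genes outside the contractile list. METTL21C, a muscle lysine methyltransferase, had a slope of 2.57 (SE 0.45, adjusted p = 0.0036) and spanned 13.4 CPM in replicate 7 to 654 in replicate 8. ACTC1, the cardiac alpha-actin, had one of 2.45 (SE 0.41) and spanned 38.4 to 1739 CPM. PKHD1, which encodes fibrocystin, had 2.16 (SE 0.41), and the calcium sensor S100A1 had 2.02 (SE 0.16), from 10.1 to 243 CPM. CA3, the carbonic anhydrase of slow fibres, had 1.88 (SE 0.16) and spanned 237 to 5107 CPM. Each of the 5 genes had its 5 lowest values in replicates 2, 5, 7, 9 and 10, the libraries of low TNNI1. They were chosen for their slopes on TNNI1, so this separation was largely set by the choice.

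The steepest falls were those of PFKFB3, IFGGA1, MICAL2, MSTN and MYH4. PFKFB3, an activator of glycolysis, had a slope of -1.79 (SE 0.47, adjusted p = 0.023) and ran from 23.3 CPM in replicate 1 to 506 in replicate 9. MICAL2, an actin-oxidising enzyme, had -1.62 (SE 0.29). MSTN, myostatin, the brake on muscle growth, had -1.34 (SE 0.13, adjusted p = 2.5e-05). MSTN had 5.41 to 18.2 CPM in replicates 1, 3, 4, 6 and 8 and 26.1 to 40.3 CPM in the others. These ranges did not overlap, but MSTN too was chosen for its slope on TNNI1. The slope of IFGGA1, -1.63 (SE 0.51), came with 1 very high library, 24.9 CPM in replicate 10 against a median of 2.40.

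**Figure D2:**
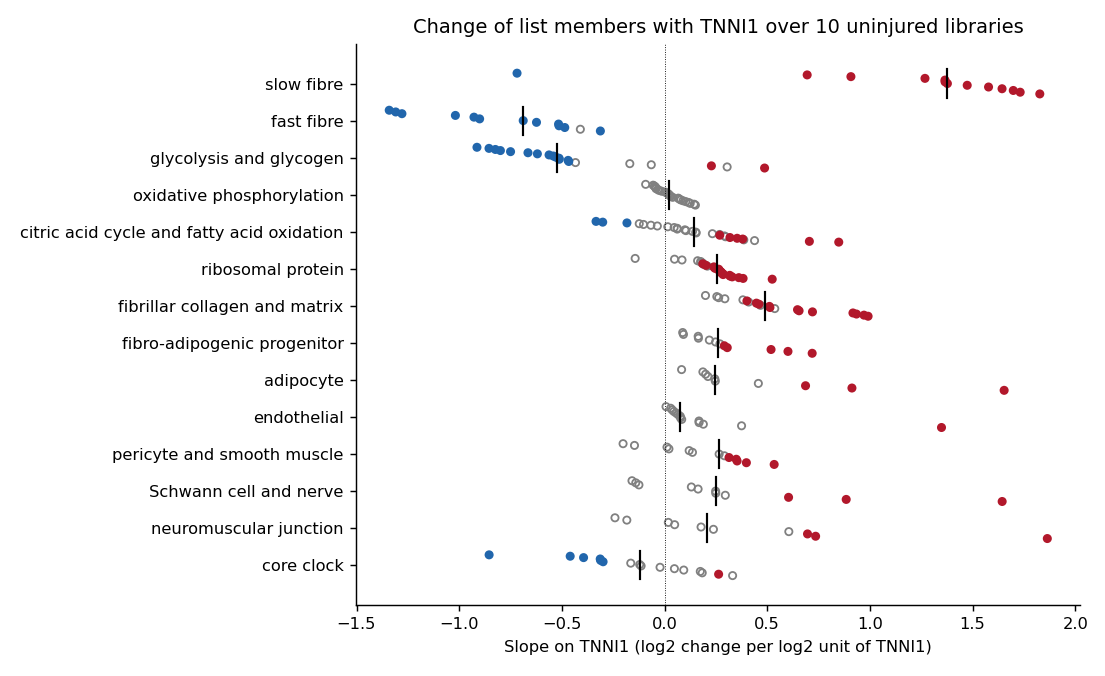
Slope on TNNI1 (log2 change per log2 unit of TNNI1, horizontal axis) of each tested member of 14 lists over the 10 uninjured libraries. Red points rose and blue points fell at an adjusted p under 0.05, open points did not pass, and the black bar is the list's median. The slow fibre list has its median at 1.38 and the fast fibre list at -0.69, while oxidative phosphorylation has it at 0.02.

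Glycolysis fell with TNNI1 while the respiratory chain showed no gene past the threshold. Of 20 genes of glycolysis and glycogen use, 14 fell and 2 rose, against 12.2% and 11.8% of all genes. The median slope was -0.52. LDHA, lactate dehydrogenase A, had a slope of -0.91 (SE 0.23, adjusted p = 0.016) and ran from 221 CPM in replicate 1 to 1440 in replicate 5. PPP1R3A, which targets phosphatase to glycogen, had -0.85 (SE 0.09), and PHKA1, a phosphorylase kinase subunit, -0.80 (SE 0.12). GPD1, of the glycerol phosphate shuttle, had -0.82 (SE 0.11). The 2 that rose were GBE1, the glycogen branching enzyme (0.49, SE 0.10), and PYGB, the brain-type phosphorylase (0.23, SE 0.08). Only 1 rose without replicate 1, 2, 3, 6, 7, 8 or 10.

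Of 25 genes of oxidative phosphorylation, 0 rose and 0 fell, with a median slope of 0.02 and 2 at an unadjusted p under 0.05. ATP5B, a catalytic subunit of ATP synthase, lay between 1456 and 2197 CPM in all libraries, and SDHA, of complex II, between 1158 and 1523. Of 28 genes of the citric acid cycle and fatty acid oxidation, 6 rose and 3 fell, against 11.8% and 12.2% of all genes. FABP3, a fatty acid carrier, had a slope of 0.85 (SE 0.20) and CPT1B, the muscle gate of fatty acid entry into mitochondria, one of 0.70 (SE 0.12). OGDH fell, with -0.30 (SE 0.06). Without replicate 1 the count was 3 up and 1 down, without replicate 6 it was 10 up, and without replicate 2, 7, 8 or 9 it was 1 down.

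Genes of protein synthesis and of protection against misfolding were also among those that rose. Of 28 ribosomal protein genes, 19 rose and 0 fell, against 11.8% and 12.2% of all genes, with a median slope of 0.26. Without replicate 7 the count was 12. Of 15 heat shock and unfolded protein genes, 5 rose, against 11.8% of all genes. They were HSPB7 (0.83, SE 0.09), CRYAB (0.76, SE 0.08), HSPH1 (0.60, SE 0.13), BAG3 and PDIA4. Without the filter on low counts, 3 rose. CRYAB, a small heat shock protein of the Z-disc, went from 1535 CPM in replicate 7 to 5490 in replicate 1. Of 15 atrophy and proteolysis genes, 1 fell and 0 rose, against 12.2% and 11.8% of all genes. FBXO32, the ubiquitin ligase atrogin-1, was the one that fell (-0.63, SE 0.09), while its partner TRIM63 had a slope of 0.00.

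Markers of the cells between the fibres were present at levels far below those of the fibres, though the levels are summed over genes of unlike length. The 15 endothelial genes summed to 453 CPM in replicate 2, 585 at the median and 761 in replicate 8. VWF, the clotting factor of the vessel wall, lay between 107 and 158 CPM, and CDH5, the junction protein of endothelium, between 62.8 and 95.1. The 13 pericyte and smooth muscle genes summed to 1804 to 2589 CPM, of which SYNPO2, also a muscle Z-disc gene, made up 59.6%. Of all genes tested 11.8% rose with TNNI1, and the counts of the cell type lists stand against that share. With TNNI1, 1 of 14 endothelial genes rose, PROX1, a lymphatic regulator that skeletal muscle also expresses (1.34, SE 0.15, 13.4 to 132 CPM). Of the 13 pericyte genes 5 rose, among them NOTCH3 (0.35, SE 0.09) and PDGFRB (0.35, SE 0.12), with 2 without replicate 1 and 3 without replicate 10.

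Matrix genes differed more. The 20 genes of fibrillar collagen and matrix summed to 624 CPM in replicate 7, 1451 at the median and 2729 in replicate 8. COL3A1, the reticular collagen, had 92.8 CPM in replicate 7, 256 at the median and 684 in replicate 8. COL1A1, a chain of type I collagen, had 48.9 CPM in replicate 10, 107 at the median and 279 in replicate 8. The 14 fibro-adipogenic progenitor genes summed to 488 to 1614 CPM, with GSN making up 44.9% of the mean. PDGFRA, the receptor that defines these cells, lay between 7.86 CPM in replicate 7 and 23.0 in replicate 1. The defining tendon marker was near 0: TNMD, tenomodulin, was at most 0.635 CPM, and 8 tenocyte genes summed to 18.6 to 58.0 CPM.

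With TNNI1, 12 of 20 matrix genes rose and 0 fell, with a median slope of 0.49. LUM, the proteoglycan lumican, had a slope of 0.99 (SE 0.22), and POSTN, periostin, one of 0.97 (SE 0.22). The matrix count was 6 without replicate 1 and 7 without replicate 7, 8 or 10. Matrix, progenitor, macrophage and Schwann cell sums were all lowest in replicate 7, the library of lowest TNNI1, and the part of such cells in the slopes was not tested. Of 12 progenitor genes 5 rose, namely GSN, CD34, SMOC2, CLEC3B and SCARA5, and 3 did so without replicate 1. Adipocyte genes rose in 3 of 10 cases: LPL, the lipoprotein lipase that fibres also make (0.69, SE 0.10), DGAT2 (0.91, SE 0.07) and RBP4 (1.65, SE 0.23). Without replicate 9, 5 rose. ADIPOQ, adiponectin, the defining fat hormone, had a slope of 0.24 that did not pass (adjusted p = 0.055). It lay between 91.5 CPM in replicate 5 and 193 in replicate 1.

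The fit on COL1A1 in place of TNNI1 called few genes, some of them in the matrix list. At an adjusted p under 0.05, 29 genes (0.280%) rose with COL1A1 and 1 (0.00965%) fell by edgeR's quasi-likelihood test. Of the 19 other genes in the matrix list, 9 rose: LUM (1.23, SE 0.21), COL14A1 (1.02, SE 0.18), COL3A1 (0.93, SE 0.12), COL1A2 (0.84, SE 0.09), COL12A1, FN1, COL5A2, ELN and COL5A1. The smallest adjusted p was that of COL2A1 (slope 0.79, SE 0.07, adjusted p = 0.0011), the collagen of cartilage, at 4.06 to 16.4 CPM. VCAN, a matrix proteoglycan, and RCOR2, a nuclear corepressor, were also among the 5 steepest, with 0.96 and 0.91. GYPC, a membrane glycoprotein known from red cells, fell (-0.62, SE 0.11), a call that was lost without replicate 1, 3, 5, 6, 7 or 8 and with DESeq2's size factors.

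The calls with COL1A1 depended on single libraries. The rise was called for 2 genes without replicate 1 or replicate 8, for 4 without replicate 7 or 10, for 13 without replicate 6, for 17 without replicate 5, for 19 without replicate 3, for 67 without replicate 4 and for 75 without replicate 9. With TNNI1 as a second covariate, 0 genes rose and 0 fell by edgeR's test (609 at an unadjusted p under 0.05). COL1A1 itself rose with TNNI1 (0.65, SE 0.20, adjusted p = 0.037).

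The immune cell genes with an entry summed to low levels. C1QA and C1QB of macrophages, and HBA, HBA1, HBA2, HBB and HBD of red cells, have no entry in the tables used here, so these markers were not counted. The 17 macrophage and monocyte genes with an entry summed to 47.7 CPM in replicate 7, 88.9 at the median and 145 in replicate 8. CD163 was at most 1.25 CPM, and CSF1R, the receptor that macrophages need, went from 1.23 CPM in replicate 7 to 8.93 in replicate 1. LAPTM5, a lysosomal protein of blood cells, ranged from 7.65 to 70.7 CPM and rose with TNNI1 (0.79, SE 0.21), as did CD68 (0.35). These were 2 of 6 macrophage genes tested, and 1 was called without replicate 1, 4, 6, 7 or 9. The lymphocyte list summed to 4.85 to 11.1 CPM, of which JCHAIN, of plasma cells, was 77.2%, and CD3G had 0 counts. The neutrophil and mast cell list summed to 2.39 to 7.74 CPM, of which KIT was 87.6%, and CXCR2 had 0 counts. With 3 counts as the most that 0 allows, the limit over the 10 libraries together is 0.0219 CPM, for counting error only. HBB2, a beta-globin, lay between 46.0 and 113 CPM.

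The 14 Schwann cell and nerve genes summed to 72.5 CPM in replicate 7, 172 at the median and 328 in replicate 1. ERBB3, the neuregulin receptor, made up 40.1% and ranged from 11.5 to 177 CPM. SOX10, the defining Schwann cell factor, lay between 0.410 CPM in replicate 7 and 2.92 in replicate 6. With TNNI1, 3 of 11 rose, ERBB3 (1.64, SE 0.18), CDH19 (0.88, SE 0.12) and PMP22 (0.60, SE 0.14).

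The 11 neuromuscular junction genes with an entry summed to 254 CPM in replicate 10, 343 at the median and 457 in replicate 6. Of the 10 tested, 3 rose with TNNI1. CHRNG, the gamma subunit of the fetal acetylcholine receptor, had a slope of 1.86 (SE 0.20, adjusted p = 3.7e-05) and ran from 0.820 CPM in replicate 7 to 11.8 in replicate 8. LRP4, the agrin receptor, had 0.70 (SE 0.10) and COLQ, the tail of junctional acetylcholinesterase, 0.74 (SE 0.13). CHRNE, the adult epsilon subunit, had -0.18 (adjusted p = 0.76), and its range was 1.48 CPM in replicate 4 to 10.8 in replicate 6. CHRND, the delta subunit, was lowest in replicate 7, at 1.09 CPM, and highest in replicate 9, at 13.7.

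PAX7, which marks satellite cells, went from 2.05 CPM in replicate 7 over a median of 3.36 to 7.13 in replicate 1 and rose with TNNI1 (0.70, SE 0.13, adjusted p = 0.0016). HEYL, a Notch target of quiescent satellite cells, rose as well. Of the 8 genes tested in the list, 2 rose and 1, MSTN, fell, against 11.8% and 12.2% of all genes. Only 1 rose without replicate 1, 2 or 8. MYF6, the myogenic factor of mature fibres, made up 68.7% of the list and lay between 238 and 345 CPM. MYOG, the factor of differentiating cells, lay between 12.5 and 26.3 CPM. The 18 cell cycle genes summed to 19.3 to 35.3 CPM.

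Genes that differ most between libraries were sought against the spread usual for their abundance. The measure was the residual deviance of a fit with a mean alone in edgeR, tested against the trended dispersion. In all 687 of 10364 genes (6.63%) were more variable than the trend at an adjusted p under 0.05. Of these, 375 were called in each of the 10 fits that left out 1 library. Among the 687, 299 also rose and 149 fell with TNNI1, together 65.2% of them and 18.1% of the 2481 genes called with TNNI1. Of all genes tested, 23.9% were called with TNNI1.

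**Figure D3:**
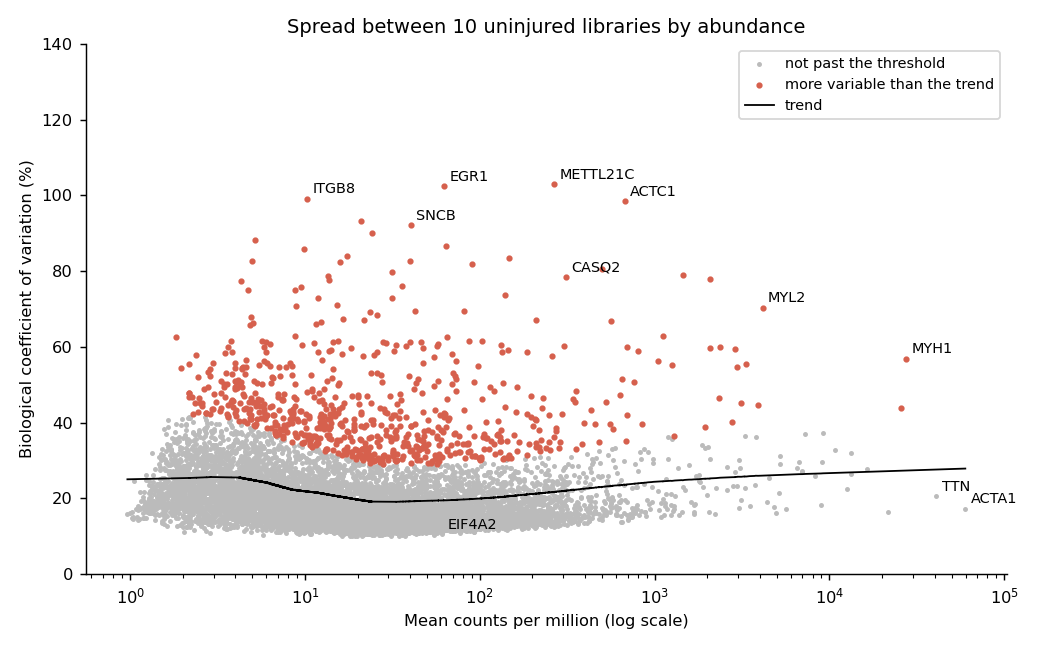
Biological coefficient of variation between the 10 uninjured libraries (percent, vertical axis) against mean CPM (log scale) for the 10364 genes tested, with edgeR's trend as a black line. Red points are the 687 genes more variable than the trend and grey points the rest. EGR1 and METTL21C lie highest, and ACTA1 and TTN lie below the trend.

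By list, the share of variable genes ranged from far above 6.63% to below it. In the slow fibre list 13 of 14 were variable, in the matrix list 14 of 20, in the neuromuscular junction list 7 of 10, in the immediate early list 8 of 12 and in the fuel switch list 6 of 11. The fast fibre list had 6 of 13, and the glycolysis list 6 of 20, which became 3 without replicate 1. The Schwann cell list had 5 of 11, or 3 without replicate 7, and the macrophage list 3 of 6, or 1 without replicate 1. At the other end stood the metallothionein and oxidative stress list with 0 of 11 and ribosomal proteins with 1 of 28 (RPL5). Oxidative phosphorylation had 1 of 25 (COX6C) and skeletal muscle fibre genes 1 of 19 (SMPX). These counts are relative to the trend at a gene's abundance. The muscle fibre genes had a median biological coefficient of variation of 25.9%, against 17.2% for all genes tested. With TNNI1, 7 of the 19 rose and 6 fell, against 11.8% and 12.2% of all genes. RPL29, which was called, is not among the 28 ribosomal genes, and the filter left RPL17 and RPL34 out of the test. Endothelium, with 1 of 14 (PROX1), lay near the share of all genes. The usual reference genes had 3 of 13: EEF1A1, PPIA and B2M.

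Among tested genes with a symbol and a mean of at least 5 CPM, EGR1, an immediate early transcription factor, lay furthest above the trend. EGR1 had 5.63 CPM in replicate 6, 26.3 at the median and 363 in replicate 9. ITGB8, an integrin that activates TGF-beta, had 0.862 CPM in replicate 1 and 46.4 in replicate 5. BARX2, a homeobox gene, had 2.40 to 97.5 CPM, and the HSPA8 entry 7.61 to 109. GDAP1, a mitochondrial outer membrane protein, had 2.22 to 41.4 CPM, with its 2 highest values in replicates 2 and 5. METTL21C, PKHD1, ACTC1, S100A1, PFKFB3 and MICAL2, described above, were also among the 15 furthest. The 15 were taken only from genes called with each library left out in turn, so those calls were set by the choice.

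Other calls rested on 1 library. PRKAG2, a subunit of the energy sensor AMPK, had 127 CPM in replicate 7 and 18.3 to 27.0 in the others, and lost its call without replicate 7. DDIT4, an inhibitor of mTOR, had 123 CPM in replicate 9 and at most 42.0 elsewhere. RPL29 had 4.17 CPM in replicate 6 and 34.4 in replicate 8, with a mean of 20.2 ± 9.39 CPM (SD, n = 10). CACNB3 lost its call without replicate 5, where it had 26.7 CPM, and NR4A2 without replicate 9, where it had 19.4.

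The 5 genes of lowest spread with at least 50 CPM were EIF2S1, EIF4A2, SEC31A, GSE1 and NUDC, with biological coefficients of variation of 10.4% to 10.9%. EIF4A2, an RNA helicase of translation, lay between 56.8 and 65.1 CPM in all 10 libraries. Among the usual reference genes, ACTB lay between 203 and 300 CPM, whereas EEF1A1 went from 10.2 to 43.0 CPM and rose with TNNI1 (0.78, SE 0.08). PPIA went from 3.76 to 20.7 CPM and rose as well (0.89, SE 0.12). The GAPDH entry had 33.0 and 32.6 CPM in replicates 5 and 9, and 149 to 288 in the other 8.

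Immediate early genes, which respond quickly to stretch, contraction or stress, varied widely, and 1 of 12 rose with TNNI1, against 11.8% of all genes: FOSB (0.80, SE 0.27). FOS had 2.12 CPM in replicate 6, 10.9 at the median and 46.2 in replicate 8. ATF3, a stress factor, had 13.3 CPM in replicate 5, 45.3 at the median and 231 in replicate 8, and BTG2, a brake on growth, 10.2 and 141 in the same libraries. NR4A1, an orphan nuclear receptor, had 31.5 CPM in replicate 1 and 199 in replicate 9. NR4A3 had its highest value in replicate 7, at 44.6 CPM. Replicates 8 and 9 thus held the highest list scores and replicates 5 and 6 the lowest. With FOS as the covariate in edgeR's test, 0 genes (0%) rose or fell (1026 at an unadjusted p under 0.05, 28 up and 10 down by DESeq2). The smallest p values belonged to SDC4, HADHA and ECH1, with an adjusted p of 0.16 for SDC4 and 0.45 for the other 2.

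Genes of the switch from glucose to fat as fuel varied in a further pattern. PDK4, which shuts pyruvate out of mitochondria, had 325 CPM in replicate 6, 915 at the median and 2443 in replicate 9. UCP3, an uncoupling protein of muscle, had 25.4 CPM in replicate 6 and 167 in replicate 9. ANGPTL4, an inhibitor of lipoprotein lipase induced by fasting, had 2.70 CPM in replicate 6 and 47.1 in replicate 9. All 3 were more variable than the trend, lowest in replicate 6 and highest in replicate 9. None of the 3 passed the test on TNNI1, with slopes of -0.01 for PDK4, -0.70 for UCP3 and -0.31 for ANGPTL4.

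**Figure D4:**
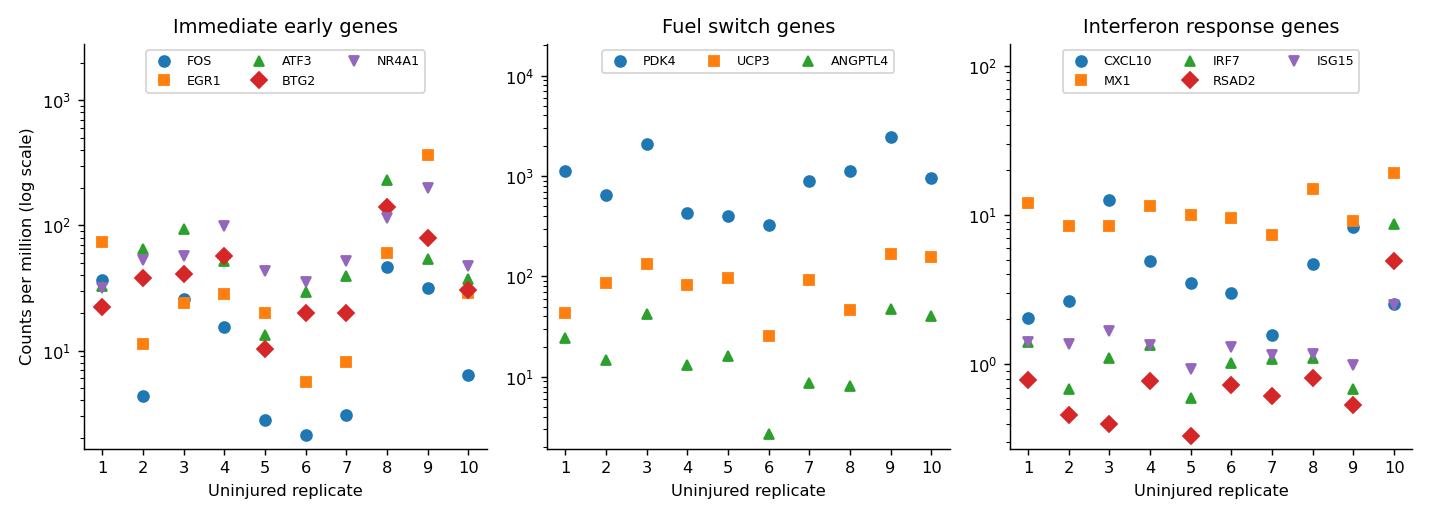
CPM (log scale) of immediate early, fuel switch and interferon response genes in each of the 10 uninjured libraries, 1 point per gene and library. EGR1 reaches 363 CPM in replicate 9 and ATF3 231 in replicate 8, the fuel switch genes are lowest in replicate 6, and the interferon genes shown, except CXCL10, are highest in replicate 10.

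Interferon response genes stood out in replicate 10. IRF7, a regulator of interferon genes, had 8.75 CPM there and 0.600 to 1.41 in the other 9, and RSAD2, the antiviral viperin, had 4.89 CPM against 0.333 to 0.810. MX1 had 19.0 CPM against a median of 9.72, and ISG15 had 2.48 against a median of 1.33. B2M, the light chain of MHC class I and a reference gene here, had 88.6 CPM against 28.1 to 50.3. CXCL10, a chemokine, took another order, with 2.55 CPM in replicate 10 and its highest value, 12.5 CPM, in replicate 3. The list's score, the mean of its members' centred log2 CPM, was 1.03 in replicate 10 and between -0.27 and 0.10 elsewhere.

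Core clock genes drive daily rhythms of transcription. Of 16 core clock genes, 2 were more variable than the trend, PER1 (34.0 to 124 CPM) and BHLHE41 (14.2 to 46.9 CPM). ARNTL, the central activator, went from 6.03 CPM in replicate 3 to 22.8 in replicate 6 and did not pass (adjusted p = 0.055). With ARNTL as the covariate 0 genes (0%) passed in edgeR's test (392 at an unadjusted p under 0.05, 3 up and 7 down by DESeq2), and the smallest p values were those of CHST15, SEMA4B and ADGRG1 (adjusted p = 0.31 each). With TNNI1, 1 of 16 clock genes rose and 6 fell, against 11.8% and 12.2% of all genes. The rise, that of CRY2, was lost without replicate 2, 4, 5, 6, 9 or 10. Those that fell included BHLHE41 (-0.85, SE 0.09) and NR1D1 (-0.46, SE 0.12). With ADIPOQ as the covariate 0 genes (0%) passed as well (1851 at an unadjusted p under 0.05, 128 up and 108 down by DESeq2). The smallest p values there were those of FAM220A, CALD1 and GUCY1B3 (adjusted p = 0.15 each).

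The co-variation of programmes was read from the scores of 27 lists, each the mean centred log2 CPM of its members. Scores of the slow fibre and of the metallothionein list fell into 2 separate sets of libraries, with a gap of at least 30% of their range. The 51 pairs that hold either were given no correlation. Across narrower gaps, the fast fibre, glycolysis, ribosomal protein, reference gene, heat shock and developmental sarcomere scores also divided without overlap into the 2 TNNI1 sets. Fast fibre scores were at most 0.10 in replicates 1, 3, 4, 6 and 8 and at least 0.24 in the others. Pairs among these lists thus carry that split, which the permutations did not account for. Of the 300 pairs without the slow fibre or metallothionein list, 13 passed at an adjusted p under 0.05, 7 above 0 and 6 below. The p came from 100000 permutations and was adjusted over all 351 pairs. The count rested on single libraries: 3 pairs passed without replicate 1, 5 without replicate 7, 7 without replicate 10, 8 without replicate 4 or 6, and 20 without replicate 2. The fast fibre and glycolysis scores went together most closely, with r = 0.961 (rho = 0.952, adjusted p = 0.0053, r = 0.901 without the 2 libraries farthest from the median). The Schwann cell and neuromuscular junction scores came next, with r = 0.948 (rho = 0.927, adjusted p = 0.0053, r = 0.845 without 2). The unadjusted permutation p of the 13 lay between 2.0e-05 and 0.0022. By Spearman's rho 9 of the 13 passed as well, and 4 did not, with adjusted p between 0.066 and 0.072.

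Matrix, progenitor and macrophage scores were each related to the other 2. Progenitors against macrophages gave r = 0.930 (rho = 0.903, adjusted p = 0.016), matrix against progenitors r = 0.909 (rho = 0.794, adjusted p = 0.017) and matrix against macrophages r = 0.908 (rho = 0.867, adjusted p = 0.017). Without 2 libraries these were 0.900, 0.775 and 0.779, and the rho of matrix against progenitors missed the threshold. Adipocyte against pericyte scores gave r = 0.862 (rho = 0.830, adjusted p = 0.048), and developmental sarcomere against heat shock scores r = 0.854 (rho = 0.794, adjusted p = 0.048), both short of the threshold by rho. The 6 pairs below 0 each held the fast fibre or the glycolysis score. Glycolysis against endothelium gave r = -0.904 (rho = -0.964, adjusted p = 0.017), and against matrix r = -0.852 (rho = -0.818, adjusted p = 0.048, r = -0.652 without 2), the latter short of it by rho. Fast fibre against tenocyte scores gave r = -0.898 (rho = -0.915, adjusted p = 0.017), against ribosomal proteins r = -0.855 (rho = -0.903, adjusted p = 0.042) and against endothelium r = -0.846 (rho = -0.891, adjusted p = 0.048). The sixth was glycolysis against the reference genes, with r = -0.855 (rho = -0.903, adjusted p = 0.030). The lists hold different genes but share libraries and their depth, and CPM are shares of 1 total.

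**Figure D5:**
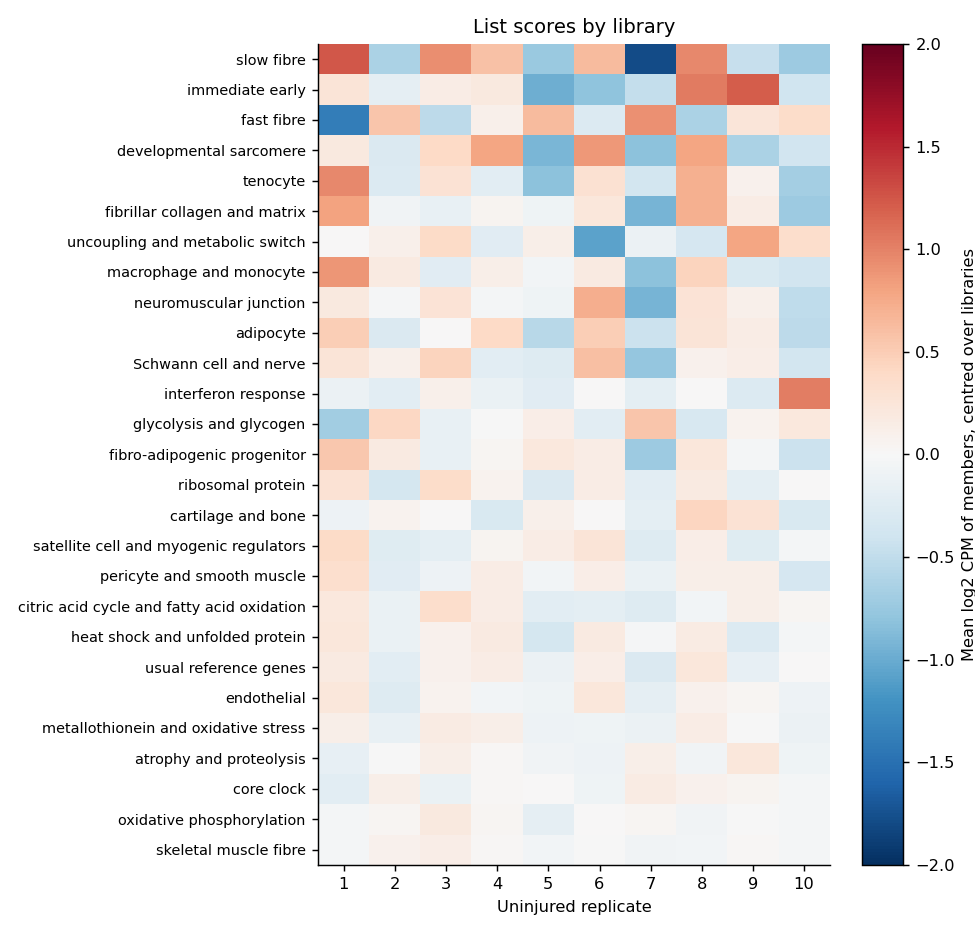
Scores of 27 gene lists (mean centred log2 CPM of members, colour from -2 in blue to 2 in red) in the 10 uninjured libraries, with the lists of largest spread on top. Replicate 1 is highest and replicate 7 lowest for the slow fibre list, the reverse holds for the fast fibre list, and the interferon list is raised in replicate 10, at 1.03.

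The first principal component of log2 CPM held 42.8% of the variance, with replicate 1 at 0.52 and replicate 7 at -0.46 as its ends, the libraries that also bounded the fibre type shares. The second held 12.8% and set replicate 4 apart, at -0.88 against -0.13 to 0.31 for the others. Replicate 4 had the lowest values of several sarcomere genes: TTN at 29442 CPM, NEB at 7783 against 11298 to 14306 elsewhere, and XIRP2, an actin-binding Xin repeat protein, at 2044 against 4469 to 6849. It also held the highest ACTA1. ATP5J (2.04 CPM) and ITGAV (2.68 CPM) were lowest there too, though ATP5J was almost as low in replicate 6, at 2.41 CPM. The third component held 9.56%.

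Of 8442 genes with a mean of at least 5 CPM, 13 took 2 levels more than 4-fold apart with at least 2 libraries at each. The gap was taken on log2 CPM after TMM scaling (prior count 2), while the CPM printed here are unscaled, and the GAPDH entry fell just short of it on the scaled values. Only 1 of these, MYBPH, myosin binding protein H, split the libraries as TNNI1 did, with 13.4 to 88.9 CPM in replicates 1, 3, 4, 6 and 8 and 0.685 to 2.89 in the other 5. ALOXE3, an epidermal lipoxygenase, had 46.9 and 54.5 CPM in replicates 1 and 4 and 0.410 to 1.46 in the rest. RPL34 had 13.4 to 23.1 CPM in replicates 1, 3, 6, 8 and 10 and 0.141 to 0.685 in the others. RPL17 had 24.5 to 36.8 CPM in 6 libraries and 0.493 to 1.99 in replicates 2, 3, 4 and 8. SNCB, beta-synuclein, had 3.58 to 5.08 CPM in replicates 3, 5, 9 and 10 and 42.6 to 87.9 in the others. Ribosomal protein genes and GAPDH have many near-identical copies, so that the assignment of their reads is uncertain. MYBPH, ALOXE3, RPL34, RPL17 and DDN belong to the 16 genes of 5 CPM or more that the filter on low counts left out of the tests above. Without the filter all 16 were more variable than the trend, and MYBPH had a slope on TNNI1 of 3.28 (adjusted p = 0.0032). Each of the 16 fell to 0.731 CPM or less in 1 or more libraries, so their wide spread was largely set by the filter.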

How the data were processed

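The 10 files were used as the authors deposited them: raw read counts per gene, 1 file per library. Per the submitters' processing notes, STAR, edgeR and the build OryCun2.0 were used. The sources used here give no versions, counter, annotation or strand setting. Each file held 18210 entries, and the entries of 7 repeated symbols were summed, which left 18202 genes. Of 3500 numbered loci 2379 matched the RefSeq table used for names. Over the 45 pairs of libraries 0 were identical, and a chi-square on their counts was at least 14.0 per degree of freedom.

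CPM were counts over the library total. Tests used edgeR 4.0.16 in R 4.3.3 with TMM scaling and edgeR's filter on low counts. A gene's spread was tested by its residual deviance against the trended dispersion, and slopes on an anchor gene's log2 CPM (prior count 2) by the robust quasi-likelihood test, 2-sided. Both were adjusted by Benjamini-Hochberg. List scores used genes of at least 1 CPM and lists of at least 5 such genes. DESeq2 1.42.0 and limma 3.58.1 served as alternatives, with other scaling, no filter, the 20 most abundant genes left out, and each library left out. A term for the 2 sets of libraries and TNNI1 as a second covariate were added after seeing the data. On simulated data of 10213 genes, 51% of genes with 4 times the trended dispersion and 89% with 8 times were recovered. For the TNNI1 slope, simulated on 10245 genes over the measured TNNI1 values, 57% with a slope of 0.5 and 100% with a slope of 1 were. These values fall into 2 sets of libraries, and the simulated fit had no term for the sets, so it says nothing of slopes within them.

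The 10 libraries, the lists and the tests were chosen with earlier results of these data known. Named were the 20 most abundant genes, the 15 furthest above the dispersion trend that were called without each library and 5 that were not, the 5 steepest in each direction on an anchor (or the 3 of smallest p), list members and the 5 least variable. ITGAV, ATP5J, CXCL10 and the genes of 2 levels were picked after their values were seen. XIRP2 belongs to the muscle fibre list. A few genes that these rules name are not reported here.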

Additional observations from a re-analysis of the deposited data

Results flagged for a closer look

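Of 208 list scores and named genes checked over the 10 libraries on the log2 scale, 12 had 1 library far from the other 9, by a gap of more than Dixon's critical value at the 95% level. Chance flags about 1 in 20 unselected and independent groups, but these were neither. PRKAG2, DDIT4 and RPL29 were named because their calls rested on 1 library, and ITGAV was picked after its values were seen. The interferon score was counted beside its own members. The number found thus cannot be weighed against chance. Replicate 10 accounted for 5 of the 12. The interferon response score was 1.03 there, its members IRF7 and RSAD2 had 8.75 and 4.89 CPM, and B2M had 88.6 CPM. NPPA was the fifth, with 0.0689 CPM in replicate 10 and 0 elsewhere, which is 1 count.

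Replicate 4 stood apart for XIRP2, at 2044 CPM, and for the integrin gene ITGAV, at 2.68 CPM, both lower than in the other 9. Replicate 7 did so for PRKAG2, at 127 CPM, and for the acetylcholine receptor gene CHRND, which was lowest there at 1.09 CPM. DDIT4 was high in replicate 9, at 123 CPM. RPL29 was low in replicate 6, at 4.17 CPM, and the clock gene ARNTL in replicate 3, at 6.03 CPM.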

How the results depend on the processing

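No paired analysis was possible because the 10 libraries form 1 group. With a term for the 2 sets of libraries, 0 genes rose and 0 fell with TNNI1, and the slopes of PKHD1 (-0.30, adjusted p = 0.96) and PFKFB3 (1.42, adjusted p = 0.81) reversed in sign. The cause was not tested. Genes that rose with COL1A1 numbered 15 without the filter, 437 by DESeq2 and 0 with TNNI1 as a second covariate. Those that fell numbered 0 with DESeq2's size factors, 231 by DESeq2, 2 by limma voom and 0 with TNNI1 as a second covariate. DESeq2 called 128 up and 108 down with ADIPOQ, 28 and 10 with FOS, and 3 and 7 with ARNTL, where edgeR called 0. Scores taken as medians over members gave 8 pairs of lists past the threshold in place of 13. The 1000 genes of largest variance put 53.4% on the first component.

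Leaving out each library in turn gave 585 to 690 genes more variable than the trend, 818 to 1433 that rose with TNNI1 and 871 to 1528 that fell. With COL1A1, 2 to 75 rose and 0 to 4 fell. With ADIPOQ 0 to 1 rose and 0 to 2 fell, with FOS 0 to 2 rose and 0 to 2 fell, and with ARNTL 0 did either. Pairs of lists numbered 3 to 20, the first component held 38.8% to 47.9%, and MYH1 took 79.5% to 85.5% of myosin reads, MYH6 11.3% to 17.0% and MYH4 0.371% to 0.412%. Of the values of single genes under the alternatives, 752 kept direction and side of the threshold, 58 lost the call and 3 gained it. The term for the 2 sets of libraries gave 32 of the 58 losses, with 2 slopes reversed and 1 unchanged. The 752 include genes chosen because they kept their call with each library left out. The filter left out 16 genes of at least 5 CPM, and 814 genes were more variable than the trend without it. The planned fit on a macrophage gene was not run, since CD163 and CSF1R were under 5 CPM, nor were the values per residue, for which no protein lengths were used. At a median depth of 13625682 counts, genes near 1 CPM rest on few counts.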

Other observations

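The 8 developmental sarcomere genes with an entry summed to 1250.5 CPM in replicate 5 and 3939.6 in replicate 8, and XIRP1, a Xin repeat protein of remodelling sarcomeres, made up 35.5% of their mean. In the metallothionein and oxidative stress list, SOD2, the mitochondrial superoxide dismutase, made up 56.5%, and 0 of 11 tested genes were more variable than the trend. In that list 2 of 11 rose with TNNI1, SOD1 and SRXN1, against 11.8% of all genes. The 15 atrophy and proteolysis genes summed to 3006 to 3745 CPM, led by FBXO40, a muscle F-box protein, with 31.9% of the mean.

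Cartilage and bone genes summed to 13.6 to 30.3 CPM, of which COL2A1 was 44.0%, and MATN1, a cartilage matrilin, and BGLAP, the bone protein osteocalcin, had 0 counts in all 10 libraries. Of epithelial, liver and heart genes, KRT5, ALB, TTR and NPPB had 0 counts as well, and MYH6 made up 97.0% of that list's mean.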
